A study of Mus musculus with 4 samples.

Results

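Transcripts of macrophages were read in fibroblast cultures from mouse embryos (MEFs), made by dispersing the torso and growing out the cells. The genes were chosen from a list of 32 macrophage genes, and a gene counted as measured where the platform annotation assigned it at least 1 probe set of its own. All 32 had one, with 56 probe sets in all, among 18193 genes and 45037 probe sets of the array. Knockout lines 2 and 4 (Pf1 -/-) were set against wild-type lines 5 and 6 (Pf+/+), with 1 array per line. Phf12 is the gene of Pf1, a chromatin-associated protein with PHD fingers. All 4 lines were used at passage 2 to 3 and grew at 6% oxygen. They came from embryos of 13.5 or 14.5 days whose head and red organs had been taken off before the tissue was minced. The labels give neither the kind of Pf1 allele, nor the passage or embryonic day of each line, nor whether each line was a separate embryo, so the spread behind each p-value is that of these 4 lines, and may be technical in part.

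Macrophages are phagocytes of the tissue that arise in the embryo from the yolk sac and fetal liver and settle in nearly every organ. They depend on the receptor Csf1r, whose ligands Csf1 and Il34 are made by fibroblasts and other tissue cells, and on the transcription factor Spi1, also called PU.1. Early-passage MEF cultures are mixed cultures of the torso, and resident macrophages can be carried into them. Some of the 32 genes, such as Cd14 and Ctsc, are also expressed by other cells. In a bulk sample, fewer macrophages and less RNA per macrophage cannot be told apart.

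Values are log2 values relative to the median of each probe set over the 4 lines, since the deposited table was centred in that way. For each probe set, this centring makes the 2 middle values of the 4 lines mirror images around 0. A gene's value is the mean of its probe sets. The centring removes the signal level, so a gene that does not vary cannot be told apart from one that is not expressed, levels of different genes cannot be compared, and the labelled cell type could not be checked by the level of its markers. Differences are the knockout mean less the wild-type mean, each with its SE (standard error) from a limma fit over all genes, n = 2 lines per genotype. A gene was called at a Benjamini-Hochberg adjusted p under 0.05. Phf12 probe set 1434922_at stood at -0.37 and -0.41 in the knockout lines, against 0.56 and 0.37 in the wild-type lines. The other Phf12 probe set, 1453579_at, stood at -0.0047 and 0.0047, against 0.051 and -0.075. The first was called lower in the knockout (limma over probe sets, adjusted p = 0.0213), and the gene mean was not called (-0.42 ± 0.0934 SE, limma adjusted p = 0.0504). The gene mean was called lower in 5 of the 8 alternatives that kept all 4 lines. The labels do not say which part of the gene was deleted, and a probe set outside it would check nothing.

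The promoters of the most variable macrophage genes are shown first, because Spi1 is itself one of the 32 genes and its binding motif contains GAGGAA. Windows of 250 bases before to 30 bases after the start of a gene were read from the RefSeq promoter table (GRCm38.p6), which held 31 windows for 25 of the genes. GAGGAA was searched on both strands. It was present in 19 of the 31 windows, and in 26% of all 32851 windows of this length in the table. Some windows of 1 gene overlap, and a match is a description of letters, not of binding. For the 8 genes with the widest range over the lines that had a window to print, only the first listed window was read. Of these 8 windows, 4 held the motif and 4 did not (Lyz2, Lcp1, Mpeg1 and Fcer1g). The 4 that held it follow, 5′ to 3′ on the strand of the gene, with the motif in capitals as GAGGAA or, where it lies on the opposite strand, as TTCCTC. Fcgr3 is read from chr1:171059374-171059653 (minus strand), Cybb from chrX:9469295-9469574 (minus strand), Clec4d from chr6:123261857-123262136 (plus strand) and Cd68 from chr11:69666141-69666420 (minus strand).
Fcgr3: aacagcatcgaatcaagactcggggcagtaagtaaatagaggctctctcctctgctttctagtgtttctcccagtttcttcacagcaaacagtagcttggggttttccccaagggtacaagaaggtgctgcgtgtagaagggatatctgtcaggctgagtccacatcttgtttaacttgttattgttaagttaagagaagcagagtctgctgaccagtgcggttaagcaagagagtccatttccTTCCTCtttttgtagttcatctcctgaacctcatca
Cybb: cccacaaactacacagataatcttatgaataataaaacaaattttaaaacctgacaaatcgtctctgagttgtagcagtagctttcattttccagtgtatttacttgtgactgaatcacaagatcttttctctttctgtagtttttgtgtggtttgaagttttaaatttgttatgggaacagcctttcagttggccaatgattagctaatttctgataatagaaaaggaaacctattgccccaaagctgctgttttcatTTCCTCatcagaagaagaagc
Clec4d: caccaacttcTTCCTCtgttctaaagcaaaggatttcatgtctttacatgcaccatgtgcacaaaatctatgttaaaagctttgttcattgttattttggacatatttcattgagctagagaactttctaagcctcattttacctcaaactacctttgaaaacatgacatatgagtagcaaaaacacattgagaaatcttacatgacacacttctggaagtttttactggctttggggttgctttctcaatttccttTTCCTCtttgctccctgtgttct
Cd68: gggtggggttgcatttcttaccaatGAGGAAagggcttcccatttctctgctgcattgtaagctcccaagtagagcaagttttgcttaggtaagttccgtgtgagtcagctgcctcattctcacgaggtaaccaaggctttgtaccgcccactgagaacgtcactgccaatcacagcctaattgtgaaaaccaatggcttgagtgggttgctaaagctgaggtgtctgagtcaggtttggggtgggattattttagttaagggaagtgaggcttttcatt
The match in Fcgr3 began 6 bases before the start and that in Cd68 225 bases before it, whereas the match in Cybb began at base 10 of the transcribed part. Clec4d held a match on either side of its start.

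The macrophage genes differed widely between lines of the same genotype, and the lines of the 2 genotypes overlapped for 31 of 32 genes. Of all genes, 58.2% did not overlap. Wild-type line 6 was the lowest of the 4 lines for 30 of 32 genes, against 21.8% of all genes, and the exceptions were Ctsc and Cd163, which were lowest in knockout line 2. Knockout line 4 was the highest line for 20 genes, wild-type line 5 for 11 and wild-type line 6 for 1, Cd163. Over all 18193 genes, line 4 was highest for 3582, line 5 for 5489 and line 6 for 4200. The median over the 32 genes was -0.26 and 0.43 in knockout lines 2 and 4, against 0.35 and -0.95 in wild-type lines 5 and 6. The order of the medians thus runs from line 4 through line 5 and line 2 to line 6, and each genotype held 1 line from the upper and 1 from the lower pair. The neighbours line 4 and line 5 differed by a median of 0.099, with line 4 above line 5 for 21 genes. Line 2 stood above line 6 for 30 genes, by a median of 0.64. Of all 18193 genes, 8665 were higher in line 4 than in line 5, and 9344 higher in line 2 than in line 6. With 1 array per line, no 2 lines can be compared with a test.

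**Figure D1:**
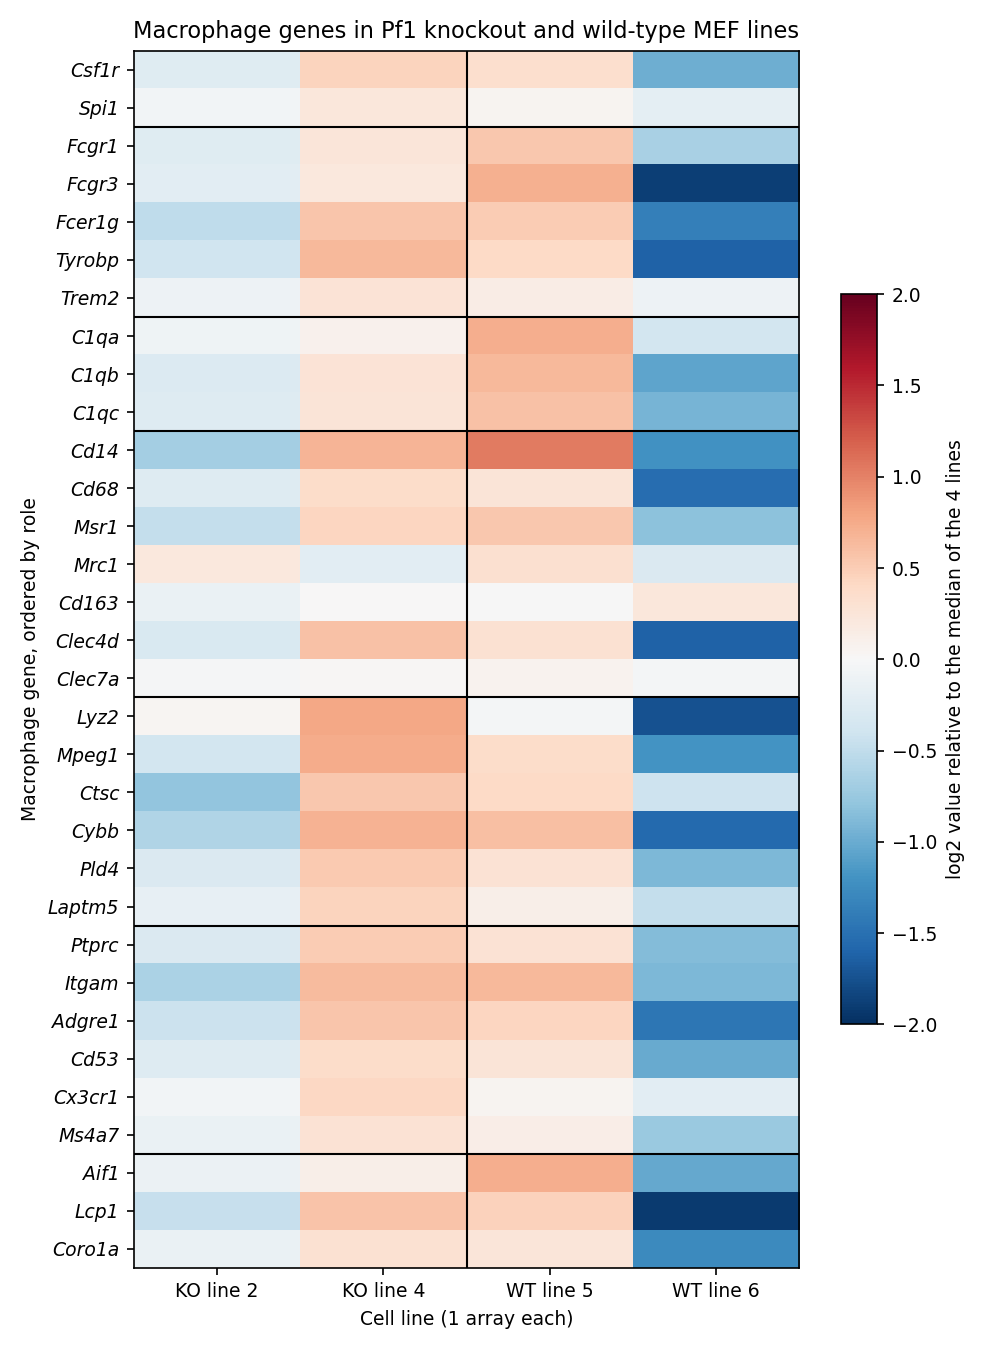
Log2 values of the 32 macrophage genes (rows, in order of their roles) in the knockout (2 and 4) and wild-type (5 and 6) lines (columns, 1 array each), each relative to the median over the 4 lines. The column of wild-type line 6 is the lowest for 30 of 32 genes, while the columns of knockout line 4 and wild-type line 5 are both high.

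Csf1r, the receptor for the macrophage growth factors, stood at -0.23 and 0.44 in the knockout lines and at 0.34 and -0.97 in the wild-type lines. Its groups overlapped, and the difference was 0.42 ± 0.471 SE (limma adjusted p = 0.631). All 3 of its probe sets were lowest in line 6, from -0.36 for 1423593_a_at to -1.82 for 1419872_at. Spi1, the lineage transcription factor, ran the same way over a narrower range, at -0.060 and 0.23 in the knockout lines and 0.060 and -0.19 in the wild-type lines. The whole range of Spi1 was 0.42, under 2-fold, and rests on 1 probe set.

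Fc receptors bind antibody-coated particles, and Fcer1g and Tyrobp are the small adaptors that carry their signals and those of Trem2. Fcgr3, the low-affinity IgG receptor, had the widest range of the 32 genes, at -0.21 and 0.21 in the knockout lines against 0.70 and -1.88 in the wild-type lines. Line 6 alone stood apart, 5.98-fold below line 5, and both knockout lines lay between the 2 wild-type lines. Tyrobp stood at -0.40 and 0.65 in the knockout lines and at 0.40 and -1.62 in the wild-type lines. Fcer1g followed with -0.50 and 0.56 in the knockout lines and 0.50 and -1.37 in the wild-type lines. In both adaptors lines 4 and 5 were high and close, line 2 was intermediate and line 6 was low. Fcgr1, the high-affinity IgG receptor, had -0.24 and 0.24 in the knockout lines against 0.55 and -0.65 in the wild-type lines, in the same order in both of its probe sets. Trem2, a lipid-sensing receptor of tissue macrophages, spanned only 0.38. The differences of these 5 genes lay between 0.053 (Fcgr1) and 0.73 (Tyrobp).

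C1qa, C1qb and C1qc encode the chains of C1q, the recognition part of the classical complement pathway, and neighbour each other on chromosome 4 (GRCm38.p6). C1qb stood at -0.27 and 0.27 in the knockout lines and at 0.65 and -1.06 in the wild-type lines. C1qc had -0.26 and 0.26 in the knockout lines and 0.58 and -0.92 in the wild-type lines. For C1qa the values were -0.082 and 0.082 in the knockout lines and 0.73 and -0.37 in the wild-type lines. All 3 chains were highest in line 5 and lowest in line 6, with both knockout lines between them. Line 5 was the highest line for 11 of the 32 genes, these 3 among them, and for 5489 of all 18193 genes. The difference of C1qa was -0.18 ± 0.356 SE (limma adjusted p = 0.804), and those of C1qb and C1qc were 0.20 and 0.17.

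Among the scavenger and pattern recognition receptors, Cd14, which presents bacterial lipopolysaccharide to its signalling receptor, stood at -0.68 and 0.68 in the knockout lines and at 1.03 and -1.21 in the wild-type lines. Its genotypes overlapped fully, with the knockout range inside the wild-type range (difference 0.090 ± 0.831 SE, limma adjusted p = 0.964). Cd68, a glycoprotein of the lysosome and endosome, had -0.26 and 0.36 in the knockout lines and 0.26 and -1.52 in the wild-type lines. Clec4d, a C-type lectin that recognises microbial glycolipids, had -0.30 and 0.59 in the knockout lines and 0.30 and -1.63 in the wild-type lines. Msr1, the class A scavenger receptor, had -0.48 and 0.43 in the knockout lines and 0.54 and -0.81 in the wild-type lines. In these 4 genes line 6 was lowest and lines 4 and 5 were the 2 high lines. For Msr1 this holds for the mean. Its probe sets 1425434_a_at (-0.42 in line 2, -0.40 in line 6) and 1425435_at (-0.29 and -0.029) were lowest in line 2.

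Of the other 3 receptors of this group, Mrc1 and Cd163 differed from this order of lines, and Clec7a kept it over a very narrow range. Mrc1, the mannose receptor, stood at 0.21 and -0.21 in the knockout lines and at 0.32 and -0.29 in the wild-type lines, so line 4 was low for it. It was the only one of the 32 genes that was higher in line 2 than in line 4. Cd163, the haemoglobin scavenger receptor, had -0.14 and 0.012 in the knockout lines and -0.012 and 0.23 in the wild-type lines, and was the only gene highest in line 6. Clec7a, the beta-glucan receptor, stood at -0.018 and 0.018 in the knockout lines and at 0.068 and -0.043 in the wild-type lines, a range of 0.11. Each of these 3 genes was read by 1 probe set.

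Lyz2, the lysozyme of macrophages and other myeloid cells, was read by probe set 1423547_at at 0.046 and 0.78 in the knockout lines and at -0.046 and -1.74 in the wild-type lines. It was the only one of the 32 genes whose genotypes did not overlap, where 28.7% of all genes had both knockout lines above both wild-type lines. The gap between the nearest lines, 2 and 5, was small beside the 3.24-fold difference between the 2 wild-type lines. Its difference was the largest of the 32 genes, 1.31 ± 0.587 SE, a 2.47-fold higher mean in the knockout, and did not pass the test (limma adjusted p = 0.223, 95% interval -0.20 to 2.81). Cybb, the catalytic subunit of the phagocyte NADPH oxidase, stood at -0.60 and 0.69 in the knockout lines and at 0.60 and -1.56 in the wild-type lines, and its 3 probe sets had the same order of lines as the mean. Mpeg1, the pore-forming perforin-2, had -0.36 and 0.75 in the knockout lines and 0.36 and -1.20 in the wild-type lines. For both, line 6 stood well below the other 3 lines.

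Ctsc, the dipeptidyl peptidase that activates granule proteases, was an exception, with -0.79 and 0.54 in the knockout lines and 0.39 and -0.41 in the wild-type lines. Here line 2 was the lowest line, in 2 of 3 probe sets. Pld4, a nuclease of the endolysosome, had -0.28 and 0.52 in the knockout lines and 0.28 and -0.90 in the wild-type lines, in the same order of lines as the medians. Laptm5, a lysosomal membrane protein of blood cells, had -0.17 and 0.45 in the knockout lines and 0.12 and -0.48 in the wild-type lines. The range of its 5 probe sets ran from 2.19 for 1436905_x_at to 0.27 for 1447742_at, and its mean averages over both kinds.

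Of the surface proteins of leukocytes, Adgre1 (the adhesion receptor used to define mouse macrophages) stood at -0.43 and 0.56 in the knockout lines and at 0.43 and -1.44 in the wild-type lines. Itgam, the CD11b chain of the complement receptor integrin, had -0.63 and 0.63 in the knockout lines and 0.65 and -0.90 in the wild-type lines. Lines 4 and 5 were within 0.014 of each other for Itgam, and line 2 stood 0.26 above line 6. Ptprc, the pan-leukocyte phosphatase CD45, had -0.29 and 0.50 in the knockout lines and 0.29 and -0.87 in the wild-type lines. Of its 2 probe sets, 1422124_a_at spanned 3.13 and 1440165_at only 0.38, with both pairs of lines in the opposite order. The tetraspanin gene Cd53 had -0.26 and 0.36 in the knockout lines and 0.27 and -1.01 in the wild-type lines, again with 1 variable and 1 nearly flat probe set. Ms4a7, a 4-pass membrane protein of macrophages, spanned 1.03, lowest in line 6, and Cx3cr1, the fractalkine receptor, spanned 0.63.

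The 3 cytoskeletal proteins of leukocytes were all lowest in line 6. Lcp1, the actin bundler L-plastin, stood at -0.45 and 0.57 in the knockout lines and at 0.45 and -1.91 in the wild-type lines. Coro1a, an actin regulator of leukocytes, had -0.14 and 0.31 in the knockout lines and 0.24 and -1.28 in the wild-type lines. Aif1, the calcium-binding protein Iba1, had -0.12 and 0.12 in the knockout lines and 0.73 and -1.02 in the wild-type lines. Lcp1 and Coro1a were highest in line 4, and Aif1 in line 5.

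In all, 25 of the 32 genes spanned at least 2-fold over the 4 lines, against 6.28% of all genes, and the median range was 1.46 against 0.31 over all genes. The genes under 2-fold were Spi1, Trem2, Mrc1, Cd163, Clec7a, Laptm5 and Cx3cr1. Of the 56 probe sets, 53 were higher in line 5 than in line 6 and 53 were higher in line 4 than in line 2. A range under 0.5 was found for 12 probe sets.

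The difference between lines of 1 genotype was then read gene by gene, as a description without a test. Wild-type line 5 stood above line 6 for 31 of 32 genes, by a median of 1.43, and by at least 2-fold for 23 genes, where 0.775% of all genes were that far apart in this direction. Knockout line 4 stood above line 2 for 31 genes, by a median of 0.62, and by at least 2-fold for 8 genes, against 0.434% of all genes. No macrophage gene was 2-fold apart the other way in either pair (0 of 32), against 0.148% of all genes for line 6 over line 5 and 0.115% for line 2 over line 4. For 30 genes both differences were above 0, against 25.0% of all genes. The largest differences between line 5 and line 6 were those of Fcgr3 (2.58), Lcp1 (2.36), Cd14 (2.24) and Cybb (2.16), and the largest between line 4 and line 2 were those of Cd14 (1.36), Ctsc (1.33), Cybb (1.29) and Itgam (1.27).

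Macrophage genes were also counted among the genes that lay furthest apart within a genotype. The 23 genes were 16.3% of the 141 genes at least 2-fold higher in line 5 than in line 6, and another 18 of those 141 were on a list of further macrophage genes. Between lines 4 and 2, they were 8 of 79 genes, beside 10 further macrophage genes. The pairs shared 45 genes that were 2-fold higher in both line 4 and line 5 (57% of the 79 and 31.9% of the 141). Of these 45, 7 were Fcer1g, Tyrobp, Cd14, Mpeg1, Cybb, Itgam and Lcp1, and 8 were further macrophage genes. The other 30 were on neither list, the fibroblast marker Lum among them.

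**Figure D2:**
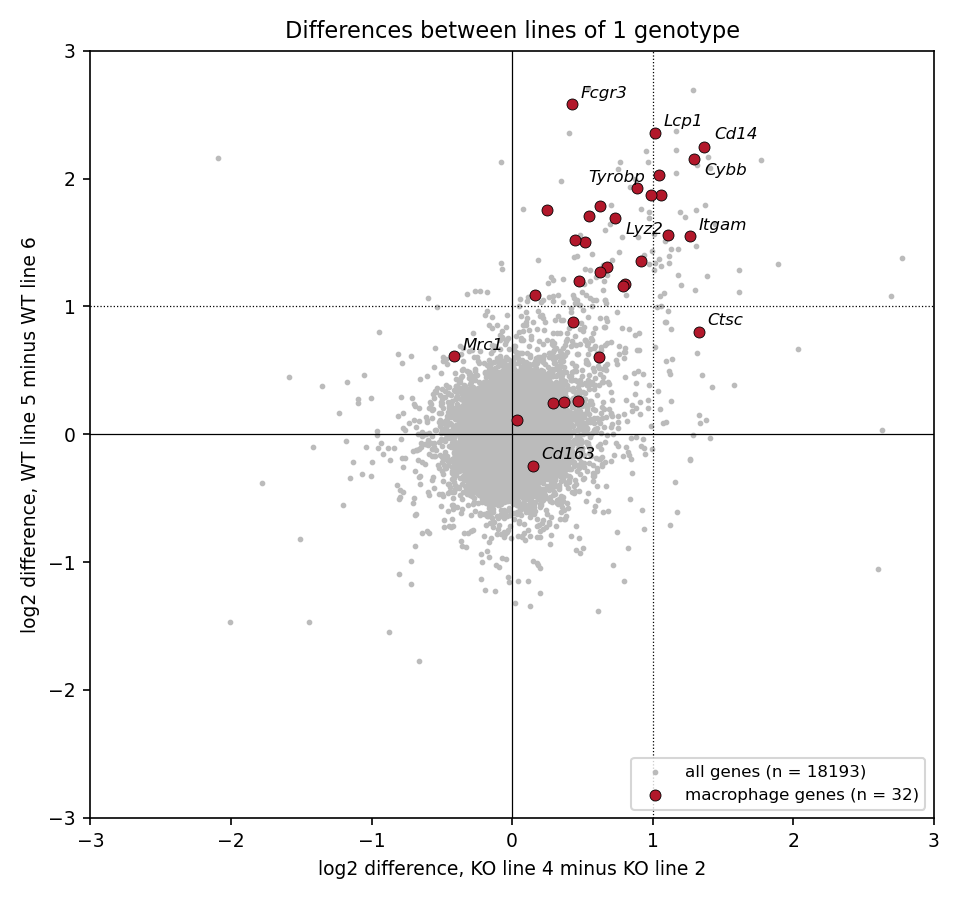
Log2 difference of knockout line 4 minus knockout line 2 (x axis) against wild-type line 5 minus wild-type line 6 (y axis), for all 18193 genes (grey) and the 32 macrophage genes (red). Dotted lines mark 2-fold, 5 genes lie outside the axes, and 30 of the 32 red points lie in the upper right quadrant.

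Set against the spread between lines, no macrophage gene was called between knockout and wild type. Limma called 0 of 32 genes, with 0 at an unadjusted p under 0.05, where 12.2% of all genes were called (5.21% higher and 6.95% lower in the knockout) and 29.5% had an unadjusted p under 0.05. The fit over probe sets called 0 of 56, against 8.32% of all probe sets (lowest limma adjusted p = 0.243). The differences ran from -0.18 (C1qa) to 1.31 (Lyz2), with a median of 0.35 against -0.0027 over all genes, and 27 of 32 were above 0. The knockout and wild-type lines overlapped for 31 of 32 genes, whereas 58.2% of all genes did not overlap. The median SE of the 32 genes was 0.51, against 0.099 over all genes. The 95% interval of a difference had a median half-width of 1.30, so for a typical macrophage gene a difference of 2-fold either way could not have been told from 0 in these lines.

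The direction of the difference depended on which wild-type line was used. In these fits the lone line of a genotype is assumed to vary like the pair of the other. Without wild-type line 5, 31 of 32 genes were higher in the knockout, with a median of 1.02. Without wild-type line 6, 28 of 32 were lower, with a median of -0.26. The sign turned between these fits for 27 genes. Lyz2, Laptm5, Spi1 and Cx3cr1 were above 0 with any 1 line left out, and Cd163 below 0. Laptm5 nevertheless stood at -0.045 when its probe sets ending in _x_at or _s_at were left out. Leaving out a knockout line moved the median to 0.75 (without line 2) and to 0.019 (without line 4). Limma called 0 of 32 macrophage genes without lines 2, 4, 5 or 6, where 0.00%, 1.76%, 0.00550% and 0.00% of all genes were called in these 4 fits (lowest adjusted p = 0.0638, for C1qa without line 6). At an unadjusted p under 0.05 there were 1, 0, 15 and 3 of 32 genes without lines 2, 4, 5 and 6, where 18.1%, 20.4%, 24.7% and 29.8% of all genes had one.

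**Figure D3:**
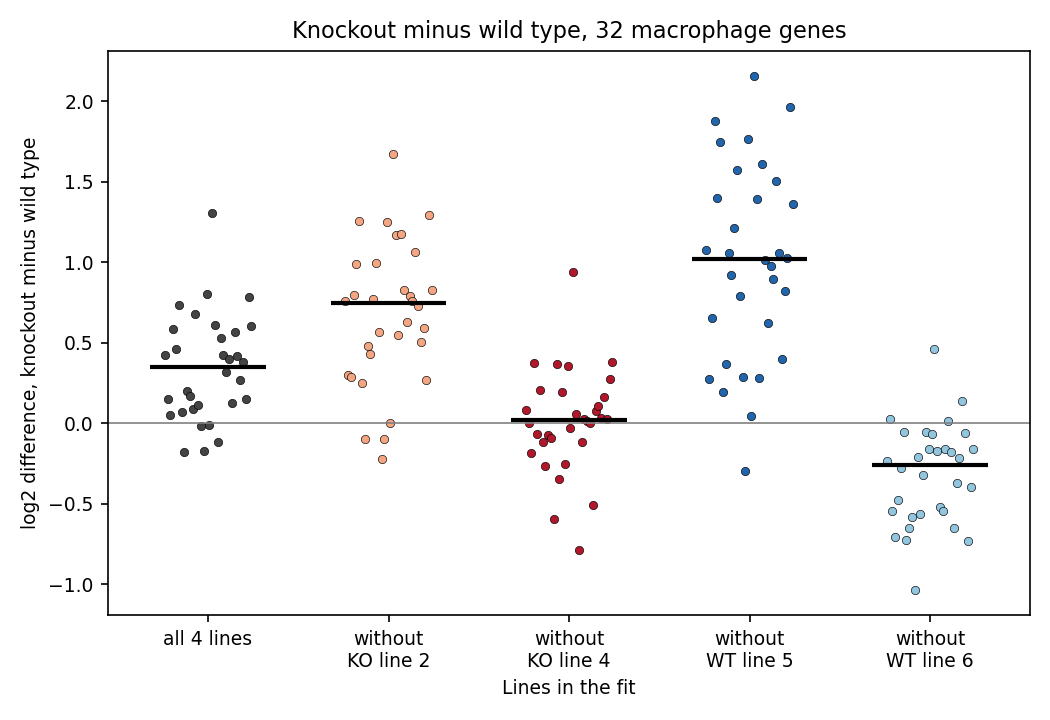
Log2 difference, knockout minus wild type, of the 32 macrophage genes (points) with all 4 lines and with each line left out in turn, with the median as a black bar. The median is 0.35 with all lines, 1.02 without line 5 and -0.26 without line 6.

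A list of further macrophage genes, chosen like the 32 with earlier results of these data known, was also lowest in line 6. It was read on the same 4 arrays, so it is not an independent check. Of 40 genes listed, 38 were measured, and their median was -0.24 and 0.31 in knockout lines 2 and 4, against 0.32 and -0.61 in wild-type lines 5 and 6. Line 6 was lowest for 32 of the 38. The 6 with the widest range were Ccl3, Cd52, Plek, C3ar1, Slc11a1 and Ccl4. The chemokine Ccl3 stood at -0.64 and 0.64 in the knockout lines and at 1.47 and -1.22 in the wild-type lines, and Ccl4 at -0.38 and 0.38 against 1.17 and -0.90. Both chemokines were highest in line 5, as were 18 of the 38 genes in all. C3ar1, the receptor for complement fragment C3a, stood at -0.38 and 0.59 in the knockout lines and at 0.38 and -1.75 in the wild-type lines. The lysosomal protease gene Ctsd, which fibroblasts also express, was the only one of the 38 called (0.61 ± 0.0971 SE, limma adjusted p = 0.0271), against 5.21% of all genes called higher.

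Median values of other blood cell markers varied less between lines. The medians of lymphocyte, dendritic cell, mast cell, and erythroid and megakaryocyte markers lay within 0.1 of 0 in every line (13, 7, 10 and 9 measured genes). Being medians of centred values, they do not show whether those cells were present. Limma called 0 of 13 lymphocyte and 0 of 7 dendritic cell markers, with 0 and 1 at an unadjusted p under 0.05, where 12.2% and 29.5% of all genes were past these thresholds. Whether such counts differ from those of all genes was not tested. Of the mast cell markers Gata2, a transcription factor also used by other cells, was called higher (0.67 ± 0.146 SE, limma adjusted p = 0.0493), a call lost with array weights and with the median of probe sets. In the erythroid and megakaryocyte list Pf4 was called higher, and Itga2b, an integrin chain of platelets, lower, the call of Itga2b being lost with the probe set of widest range. Neutrophil and granulocyte markers had medians of -0.21 and 0.017 in the knockout lines and 0.45 and -0.068 in the wild-type lines, high in line 5 alone, and limma called 0 of 10, with 0 at an unadjusted p under 0.05, against the same 12.2% and 29.5% of all genes. Osteoclast markers, which belong to a cell of the macrophage lineage, had medians of -0.073 and -0.0086 in the knockout lines and 0.062 and 0.044 in the wild-type lines. Of the 10 differences in that list, 5 were above 0 and 5 below. Within that list Ctsk, a collagenolytic protease, was lower in the knockout by 2.90-fold (-1.53 ± 0.0834 SE, limma adjusted p = 0.0103), with lines of 1 genotype close to each other, and the gelatinase gene Mmp9 was also called lower. The call of Mmp9 (adjusted p = 0.0449 in limma) was lost with array weights, the median of probe sets and the probe set of widest range. Beside the calls in the mast cell, erythroid and megakaryocyte, and osteoclast lists, 5.21% of all genes were called higher and 6.95% lower.

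Most fibroblast markers separated by genotype, with both knockout lines below both wild-type lines for 16 of 20, against 29.5% of all genes. Lines of 1 genotype differed too. For 13 of the 20, line 4 stood above line 2 and line 5 above line 6, against 25.0% of all genes. Line 5 was at least 2-fold above line 6 for 4 of the 20, against 0.775% of all genes. Of 20 measured, 11 fell and 1, Fn1, rose (limma adjusted p under 0.05), against 6.95% and 5.21% of all genes. The call of Fn1 was lost with the filter on the range. Their median was -0.57 and -0.32 in the knockout lines and 0.49 and 0.25 in the wild-type lines. Pdgfra, a growth factor receptor of mesenchymal cells, stood at -1.29 and -0.64 in the knockout lines and at 1.77 and 0.64 in the wild-type lines, a call lost with robust eBayes. In each genotype the list medians of the 2 lines had the same sign, whereas those of the macrophage genes had opposite signs. Of 14 endothelial markers, Emcn, a sialomucin of vessels, was called higher (1.85 ± 0.112 SE, limma adjusted p = 0.0103), and Tek and Egfl7 lower, Egfl7 not without _x_at and _s_at probe sets. Of 12 epithelial markers, Krt8, a keratin of simple epithelia (2.42 ± 0.210 SE, limma adjusted p = 0.0132), Cldn3 and Cldn4 were called higher and Krt19 lower. Beside these endothelial and epithelial calls, 5.21% of all genes were called higher and 6.95% lower. Cldn3 lost its call in 3 of the 8 alternatives that kept all lines, and Krt19 in 1 of 7. The list of macrophage growth factors and attractants had medians of -0.15 and -0.041 in the knockout lines and 0.21 and 0.043 in the wild-type lines, and 8 of its 10 differences were below 0. In 6 of the 10 both knockout lines lay below both wild-type lines, against 29.5% of all genes. An unadjusted p under 0.05 in limma was found for 5 of the 10, also against 29.5% of all genes. The 1 gene called ran the other way, Anxa1 (0.69 ± 0.114 SE, limma adjusted p = 0.0283), whose product regulates inflammation, against 5.21% of all genes called higher. The part of these differences in the macrophage values was not tested.

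**Figure D4:**
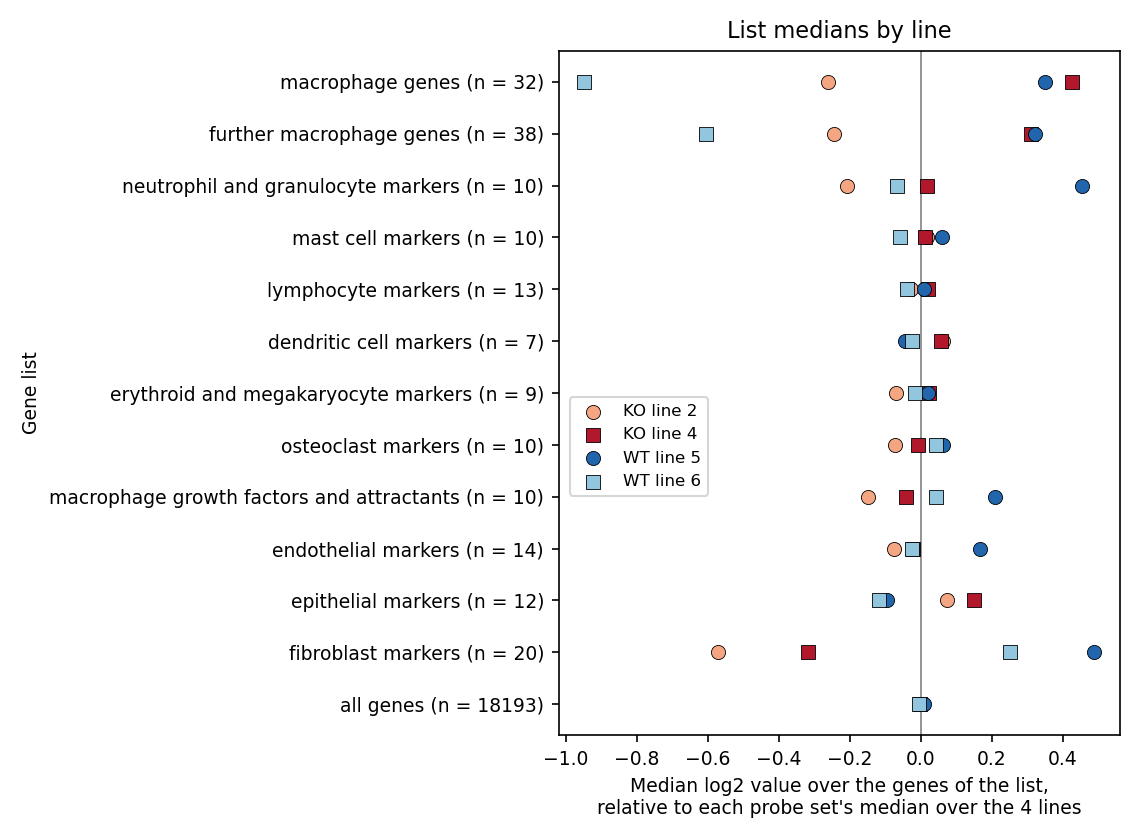
Median log2 value over the genes of each list (rows, with the number measured) in the knockout (2 and 4) and wild-type (5 and 6) lines, each gene relative to the median over the 4 lines. Both macrophage lists spread over lines with wild-type line 6 lowest, while fibroblast markers separate the 2 knockout lines from the 2 wild-type lines.

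The genes closest in pattern to the macrophage genes were sought among the 1118 other genes with a range of at least 1 over the lines. Closeness was the mean absolute distance over the 4 lines between a gene's values and the median profile of the 32 genes, each relative to its own mean. The 15 closest genes were Ms4a6d, Ncf1, Alox5ap, Ccl9, Adam8, Cd300lb, Igsf6, Nckap1l, Cd300ld, Ms4a6b, Il13ra2, Tm6sf1, Ptpn6, Hk3 and Rapgef5, at distances from 0.015 to 0.118, against a median of 0.687. Of these, Ncf1, Alox5ap, Ccl9 and Ptpn6 were on the list of further macrophage genes. Ms4a6d, a relative of Ms4a7, stood at -0.31 and 0.33 in the knockout lines and at 0.32 and -1.01 in the wild-type lines. Ncf1, the organiser subunit of the oxidase that holds Cybb, stood at -0.25 and 0.27 in the knockout lines and at 0.38 and -0.92 in the wild-type lines. These genes were chosen for their pattern over 4 arrays, so their likeness is a description.

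**Figure D5:**
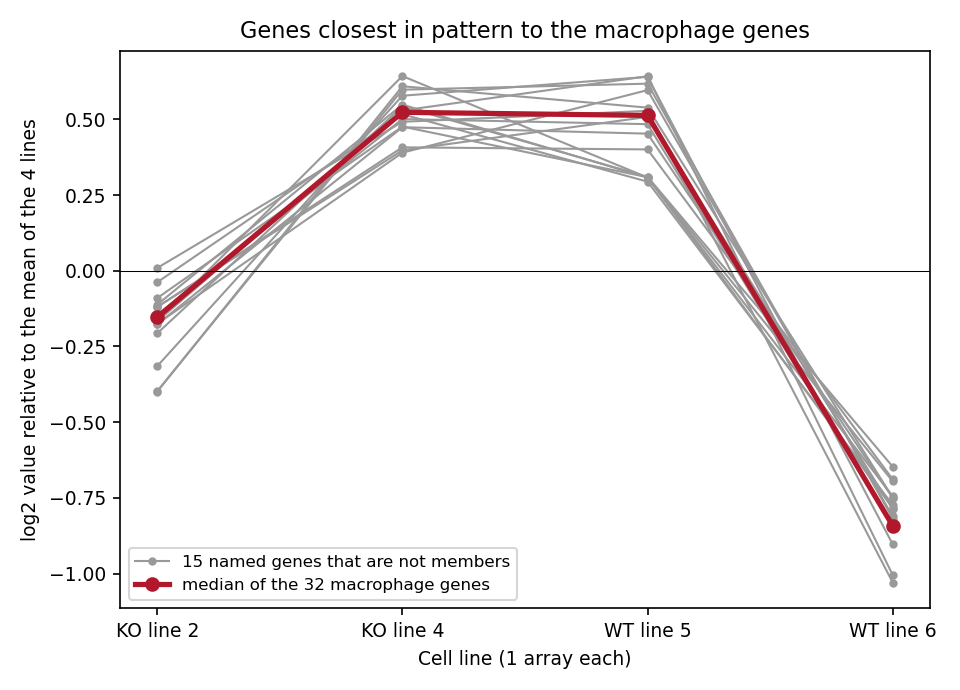
Log2 values relative to the mean of the 4 lines for the 15 genes closest in pattern (grey) and the median of the 32 macrophage genes (red), in the knockout (2 and 4) and wild-type (5 and 6) lines. The red profile stands at -0.15, 0.52, 0.51 and -0.84 from left to right.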

How the data were processed

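Biotinylated cRNA from total RNA of 4 MEF lines was read on 1 Affymetrix array each. The deposited values were taken as log2 values, since the submitters' processing notes name RMA, a method that works on that scale, and Affymetrix Expression Console. Neither version was given in the sources used here. Each probe set's median over the 4 arrays was 0 within 5e-07, a centring that the labels do not describe. The series text names a smaller array than the one whose annotation matched the 45101 probe sets. No detection calls or scan dates were used, and precision is limited by having 4 arrays.

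Control probe sets (64) and those annotated to several genes (932) or to none were left out, and 34945 probe sets were averaged to 18193 genes. Of 34741 probe sets matched to RefSeq (GRCm38.p6) by Entrez identifier, 0 had another symbol there. The genotype difference was estimated in R 4.3.3 by limma 3.58.1 (lmFit, eBayes) with no covariate, at 2 residual and 3.04 prior degrees of freedom, after the code was tested on simulated data. The 32 genes and all other lists were chosen with earlier results of these data known. Named genes were all 32, the 6 further macrophage genes and up to 3 genes of every other list with the widest range, the 15 closest in pattern, and Phf12. Other called genes of the lists (such as Ctsd, Anxa1 and Fn1) were named after their values were seen. Alternatives were each line left out, 2 normalisations between arrays, array weights, robust eBayes, other ways to join probe sets and a filter on the range.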

Additional observations from a re-analysis of the deposited data

How the results depend on the processing

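No macrophage gene was called by limma in any of the 12 alternatives. Among all genes, 2212 were called with all lines, 0 to 321 with 1 line left out and 1912 to 2664 otherwise. The median difference of the 32 genes lay between 0.29 and 0.49 under the alternatives that kept all 4 lines. With 1 line left out it lay between -0.26 and 1.02, and was below 0 only without wild-type line 6. Array weights and robust eBayes left each difference unchanged, with the median at 0.35, so they do not check its size. The range filter also left each difference unchanged and kept 28 of the 32 genes. The count of genes 2-fold higher in line 4 than in line 2 was 8, and lay between 8 and 13 over 5 alternatives that kept all lines. The count of 13 came with the probe set of widest range per gene. That probe set was picked by its range over these same lines, which by itself favours a higher count. The median of line 5 minus line 6 lay between 1.33 and 1.73 and that of line 4 minus line 2 between 0.62 and 0.85 over the same 5 alternatives. Uncalled differences turned sign for Trem2 (-0.034) and Laptm5 (-0.045) without _x_at and _s_at probe sets, and for Mrc1 (0.00802) and Ctsc (0.061) with quantile normalisation. Of the 26 genes called in the other lists, 11 lost the call in at least 1 of the alternatives that kept all 4 lines, Fn1 among them (with the range filter), and 19 lost it whichever line was left out. No paired analysis was possible because knockout and wild-type lines share no replicate number.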

Other observations

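The genes S100a8 and S100a9, which encode the calprotectin subunits of neutrophils and activated myeloid cells, were high in wild-type line 5 alone. S100a9 stood at -0.20 and 0.20 in knockout lines 2 and 4, against 2.01 and -0.35 in wild-type lines 5 and 6, and S100a8 at -0.47 and 0.29 against 1.84 and -0.29. Lcn2, an iron-withholding protein of neutrophils and stressed tissue cells, stood at -1.05 and 0.066 against 1.27 and -0.066. None of the 3 was called (limma adjusted p = 0.547, 0.507 and 0.272). The attractants Ccl2 and Ccl7 and the growth factor Csf2 were also highest in line 5. For all 3, both knockout lines lay below both wild-type lines, as they did for 29.5% of all genes. Their differences of -0.77, -0.95 and -0.84 did not pass the test (limma adjusted p = 0.161, 0.0713 and 0.0807). Ccl7 stood at -0.35 and -0.27 in the knockout lines, against 1.01 and 0.27 in the wild-type lines. The range filter made Ccl7 and Csf2 pass it, and quantile normalisation Ccl7.

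Pf4, a chemokine of megakaryocytes that fetal macrophages also express, was higher in the knockout by 2.18-fold (1.12 ± 0.204 SE, limma adjusted p = 0.0337), at 0.35 and 0.77 in the knockout lines against -0.35 and -0.77 in the wild-type lines. Like most macrophage genes it was highest in line 4 and lowest in line 6, but its genotypes did not overlap. Of all genes, 28.7% had both knockout lines above both wild-type lines, and 5.21% were called higher. With 1 line left out, the difference of Pf4 lay between 0.91 and 1.34. In each of these 4 fits the calls of Pf4, Ctsd and Anxa1 were lost.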
